A study of Helianthus annuus with 180 samples.

Results

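The comparison described here is that of the lit side of sunflower stems after 1 hour of unidirectional blue light (ZT4) with the same side just as the light was switched on (ZT3). It rests on 12 of the 180 libraries of the series, 6 per time point, and on all 32644 genes that passed a filter on low counts, of 46480 listed. The 12 libraries of the shaded side at ZT3 and ZT4, peeled from the opposite flank of the stem, served as comparators, and all 108 phototropism libraries (18 groups of 6) entered the fit. The other 72 libraries came from plants tracking the sun in the field and were not used here.

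Plants were of the sunflower strain HA412-HO, genotype WT, 2 weeks old, raised at 25 °C in 16 h of light at 180 µmol m-2 s-1 and 8 h of dark. At ZT3 (hours after dawn) they were moved under blue LEDs shining from 1 side at 280 µmol m-2 s-1. At each time point a vegetable peeler took strips from the lit and from the shaded flank of the first internode, so a strip held epidermis, cortex and vascular tissue, and strips of 2 plants were pooled per library. Both sides shared the hour of clock time, the handling and the change of lamp. On the lit side alone these cannot be told apart from the blue light itself, and a comparison with the shaded side speaks only to what differed between the flanks. In such bulk tissue, fewer cells of a type and less RNA per cell cannot be told apart either.

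As background, blue light is sensed in plants by the phototropins, kinases that set off bending toward light through NPH3-type partners and a shift of auxin to the shaded flank, and by the cryptochromes, which hold back the COP1/SPA complex so that transcription factors such as HY5 accumulate. In Arabidopsis, HY5 turns on genes for photoprotection (early light-induced proteins, ELIPs), DNA photorepair (photolyases) and flavonoid sunscreens. Sunflower genes are named below only by the Arabidopsis homolog the study's tables give them, and the roles are those known from Arabidopsis. A homolog was at hand for 9899 of the genes tested. For 1314 of these it came only from tables the study made of genes differing between the sides at ZT4, so genes that moved in this hour are over-represented among the named ones.

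Library totals ran from 6067287 to 28394943 estimated counts over the 4 groups, and from 8156980 to 25146924 on the lit side. The first principal component (24% of the variance) set replicates 5 and 6 of all groups (56.7 to 88.0) apart from replicates 1 to 4 (-74.9 to -23.5). On the second (15.7%), the 6 lit ZT4 libraries lay at -103.5 to -26.8 and the other 18 libraries at -38.0 to 58.4, with a small overlap. Marker lists for epidermis (15 genes tested), xylem (8) and phloem (7) held 0 genes called on the lit side by the edgeR test described next. The summed epidermis markers spanned 236 to 703 CPM (counts scaled to library size) at ZT3 and 221 to 632 at ZT4, and the phloem markers 429 to 800.4 and 411.9 to 802. Xylem markers spanned 77.0 to 141 and 115 to 219 CPM, overlapping but with a median log2 fold change of 0.85. The value is repeated beside the gene groups it moves with.

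**Figure D1:**
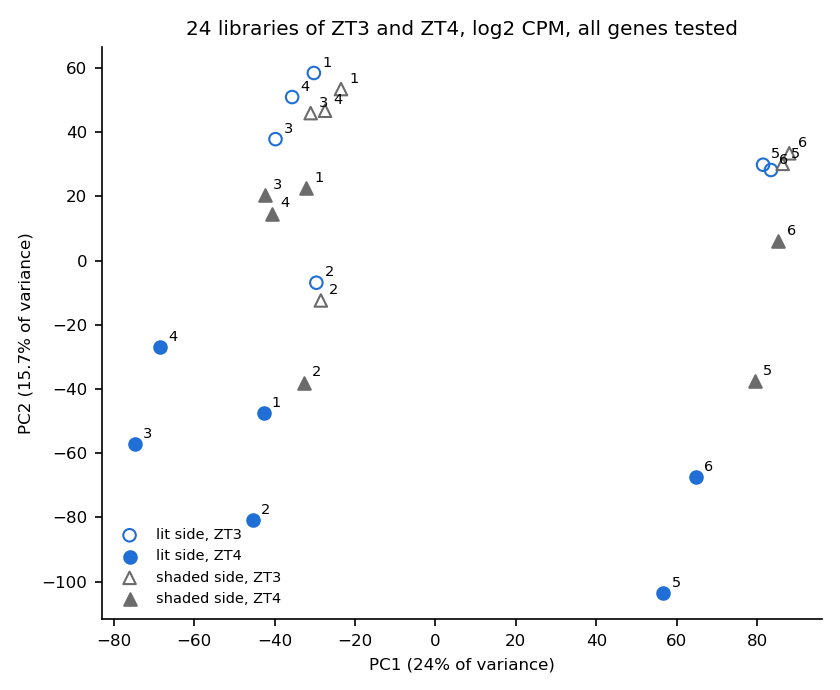
Principal components of log2 CPM for the 24 libraries at ZT3 and ZT4, each point 1 library with its replicate number, axes in component units with the share of variance. Replicates 5 and 6 stand apart on the first component, and the lit ZT4 libraries reach lowest on the second (-103.5 to -26.8).

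During the hour, 2885 genes rose (8.84% of the genes tested) and 2961 fell (9.07%) on the lit side by edgeR's quasi-likelihood test (adjusted p under 0.05), together 17.9%. Rises were the larger changes. Among the genes called, 476 rose and 132 fell by more than 4-fold, 213 and 28 by more than 8-fold, and 99 and 11 by more than 16-fold. The median log2 fold change was 0.87 for the genes that rose, -0.72 for those that fell and 0.02 over all genes. The 6 and 6 libraries did not overlap for 1067 genes that were higher and 759 that were lower at ZT4 (5.59% of genes tested). On the shaded side the same hour gave 676 rises (2.07%) and 514 falls (1.57%), together 3.65%, with no overlap for 267 and 205 genes (1.45%).

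The change itself differed between the sides for 1251 genes (3.83%) in the same fit, being higher on the lit side for 660 (2.02%) and lower for 591 (1.81%). Of the genes that rose on the lit side, 425 also rose on the shaded side, with a larger lit rise in 314, and 100 of the 425 differed upward between sides by the test. Of those that fell, 385 fell on both sides. No gene rose on the lit side and fell on the shaded one, whereas 16 fell on the lit side and rose on the shaded. For 2236 of the lit rises and 2469 of the lit falls the difference between sides did not pass the test, which does not show that the sides moved alike. The replicate numbers paired the libraries, and with the number as a block the calls became 7447 on the lit side, 2077 on the shaded side and 1880 for the difference. With a block of time point and number on the 24 libraries alone the difference was called for 2828 genes. The smallest count for the lit side with 1 library left out was 5221.

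**Figure D2:**
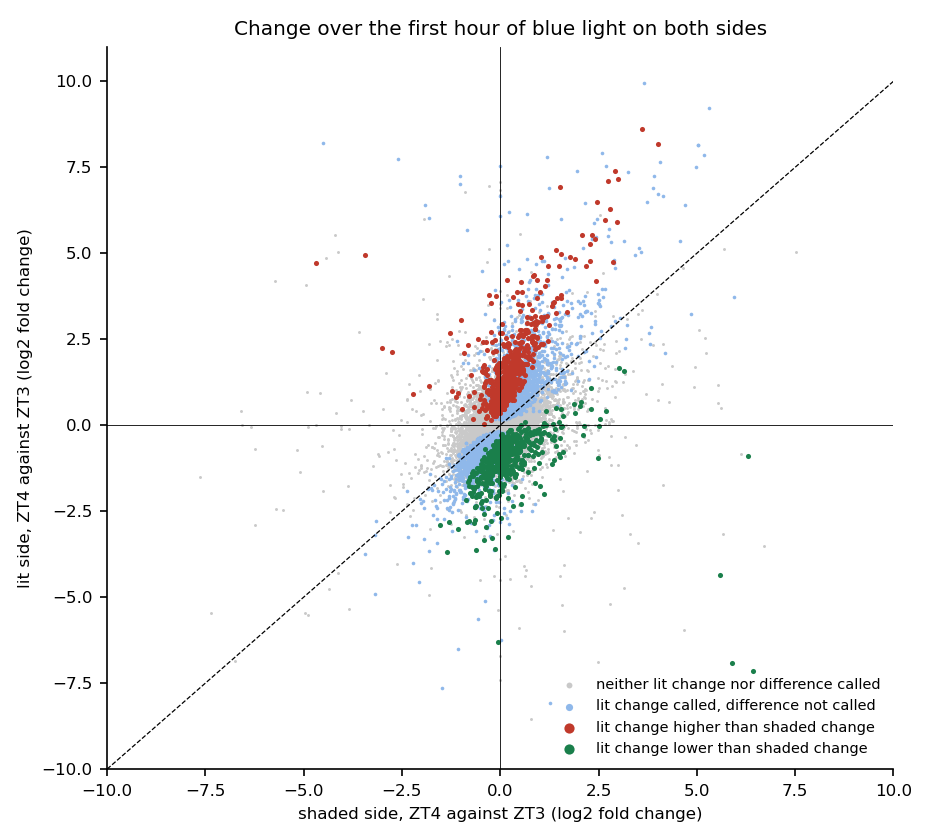
Fitted log2 fold change ZT4 against ZT3 of every gene tested, shaded side on the x axis and lit side on the y axis, coloured by whether the lit change and the difference between sides were called (1251 genes for the difference), with equal change as a dashed line. More genes rose over 4-fold on the lit side (476) than on the shaded side (99).

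Largest among the rises (genes at 10 CPM or more with no overlap of the libraries) were genes that turn over jasmonates, ELIPs and several oxygenases. The homolog of CYP94B3 (Ha412HOChr04g0152581), whose product oxidises the active jasmonate in Arabidopsis, had a median of 0 CPM (range 0 to 0.111) at ZT3 and a median of 38.6 CPM (range 9.50 to 61.6) at ZT4. No ZT4 library overlapped a ZT3 one, as the limit set for these genes required. With 2 counts in all at ZT3 against 3077 at ZT4, the ratio was 1360 (95% counting interval 376 to 11230, covering counting error only), adjusted p = 5.7e-10 by edgeR. A homolog of AT5G05600 (Ha412HOChr15g0744481), one of the oxygenases that hydroxylate jasmonic acid, stood at a median of 0 CPM (range 0 to 0.111) and then at a median of 21.2 CPM (range 9.33 to 89.2), from 3 to 2138 counts. A further CYP94B3 homolog (Ha412HOChr02g0052621) went from 3 to 1181 counts, with a median of 12.5 CPM (range 3.68 to 32.4) at ZT4. All 3 genes thus passed from nearly no reads to several CPM or more in every lit ZT4 library.

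ELIP homologs, chlorophyll-binding proteins of the thylakoid made under strong light, came next. The ELIP2 homolog Ha412HOChr03g0133691 measured a median of 0.211 CPM (range 0 to 0.408) at ZT3 and a median of 86.99 CPM (range 65.2 to 134) at ZT4 (log2 fold change 8.62 ± 0.51 (SE), adjusted p = 8.15e-27, edgeR). The ELIP1 homolog Ha412HOChr03g0133601 measured a median of 1.52 CPM (range 0.181 to 3.50) and a median of 497 CPM (range 336 to 672) (8.19 ± 0.56, adjusted p = 4.29e-23). In both, the lowest ZT4 library lay far above the highest ZT3 library. On the shaded side these genes rose less, by 3.60 ± 0.47 and 4.02 ± 0.49, and the difference between sides was 5.02 ± 0.80 (adjusted p = 2.59e-06) and 4.17 ± 0.69 (5e-06).

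The remaining large rises, all without overlap by the same limit, included a methyltransferase homolog of AT5G66430 (Ha412HOChr09g0405301), at a median of 0.336 CPM (range 0 to 0.442) and a median of 47.6 CPM (range 14.2 to 75.02). Homologs of AT5G16010 (Ha412HOChr05g0223171, a steroid dehydrogenase family protein) and AT3G21360 (Ha412HOChr10g0434511, an oxygenase) rose from means of 0.146 ± 0.109 CPM and 0.124 ± 0.108 CPM (SD, n = 6) to 35.8 ± 12.3 CPM and 22.9 ± 14.9 CPM. The homolog of AT4G10490 (Ha412HOChr03g0134851), another oxygenase, rose from 0.928 ± 0.827 CPM to 107 ± 72.5 CPM. The last 3 of the 12 (Ha412HOChr03g0093481, Ha412HOChr03g0093471 and Ha412HOChr12g0541981) had no homolog in the tables used. Their log2 fold changes were 7.87 ± 1.63, 7.51 ± 1.58 and 7.16 ± 0.98. Ha412HOChr12g0541981 had 1 ZT4 library, replicate 5, at 110.4 CPM against 5.29 to 35.99 in the others.

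**Figure D3:**
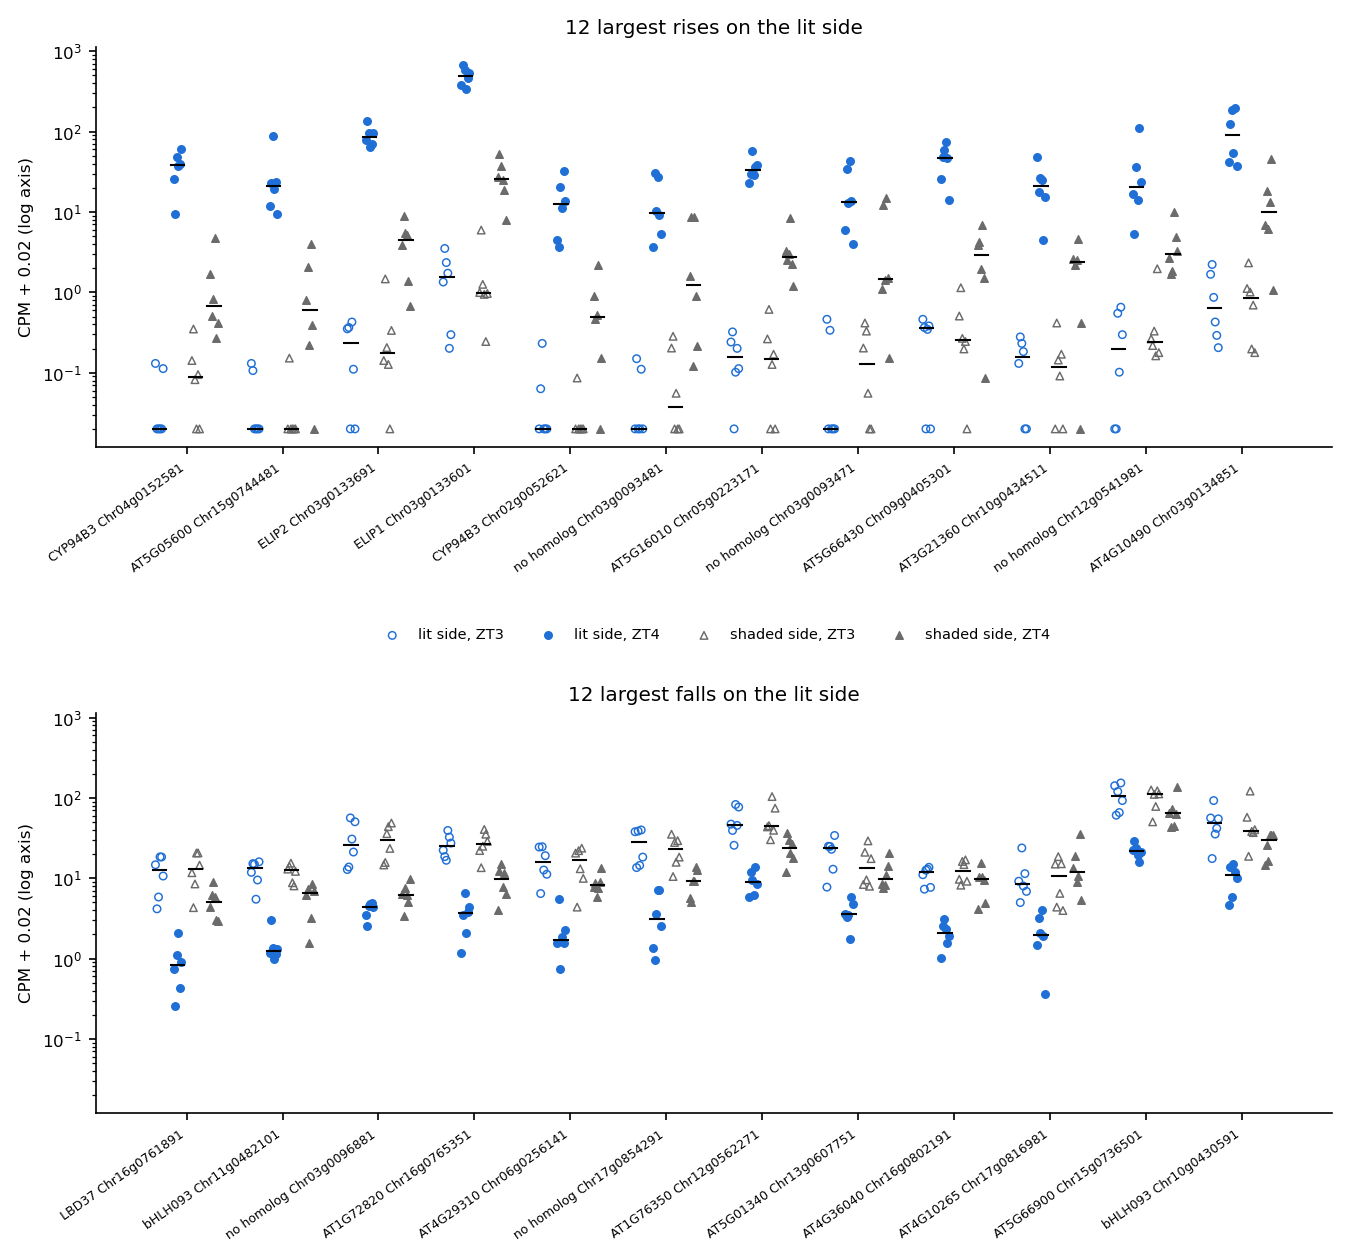
CPM of the genes with the largest rises and falls on the lit side in each of the 24 libraries (log axis, 0.02 added to each value), with symbols for side and time point and bars at the median of 6. The lit ZT4 points stand clear of the lit ZT3 points for every gene, as the rule that picked these genes required.

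Falls were smaller, and transcription factors were among the largest. The homolog of LBD37 (Ha412HOChr16g0761891), in Arabidopsis a repressor of anthocyanin and nitrogen-responsive genes, dropped from a median of 12.7 CPM (range 4.14 to 18.4) to a median of 0.808 CPM (range 0.238 to 2.09), a log2 fold change of -3.69 ± 0.48 (adjusted p = 9.1e-10, edgeR). A pair of bHLH093 homologs, Ha412HOChr11g0482101 and Ha412HOChr10g0430591, changed by -3.01 ± 0.33 and -2.26 ± 0.39. An RWP-RK family gene (homolog of AT1G76350, Ha412HOChr12g0562271), of the family that holds the nitrate regulators, fell from 52.9 ± 22.3 CPM to 9.27 ± 3.12 CPM. None of these overlapped between the time points, which the rule for naming the largest falls required. Metabolite carriers were a further kind, with homologs of AT1G72820 (Ha412HOChr16g0765351, -2.90 ± 0.31) and AT5G01340 (Ha412HOChr13g0607751, -2.51 ± 0.51). Chaperone-type and stress-type genes included a DnaJ protein (AT4G36040, Ha412HOChr16g0802191, -2.40 ± 0.33), a wound-responsive family protein (AT4G10265, Ha412HOChr17g0816981, -2.28 ± 0.46) and a disease resistance protein (AT5G66900, Ha412HOChr15g0736501, -2.27 ± 0.22). The last went from a median of 106 CPM (range 60.9 to 154) to a median of 21.9 CPM (range 15.9 to 28.7). The other 3 were Ha412HOChr03g0096881, Ha412HOChr17g0854291 and the homolog of AT4G29310 (Ha412HOChr06g0256141), with changes of -2.91 ± 0.31, -2.81 ± 0.28 and -2.83 ± 0.33.

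Genes were next grouped by lists, 12 that the study tied to field tracking and 21 built from Arabidopsis homologs. Among all tested genes with a homolog, 12.2% rose and 17.1% fell on the lit side (29.3% called), or 12.4% and 10.2% where the homolog did not come from the ZT4 tables alone (22.6%), and a list is read beside these shares. The median log2 fold change over all tested genes was 0.02, and 0.00 over those with a homolog. Several homolog lists hold genes whose homolog came only from the ZT4 tables, so these genes entered through the libraries tested here. They were 7 of 10 antenna, 5 of 12 photoreceptor, 5 of 14 brassinosteroid, 5 of 20 jasmonate, 4 of 18 light signaling and 4 of 16 clock genes. Of the auxin lists they were 3 of 12 PIN and GH3, 3 of 19 AUX/IAA and 2 of 17 SAUR genes. Lower shares were 3 of 23 rapid stress factors, 2 of 11 phenylpropanoid entry and 2 of 17 photoprotection and photorepair genes. The last were 2 of 22 hydroxycinnamate and lignin and 1 of 11 B-box and CONSTANS-like genes.

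Photoprotection and photorepair genes rose together. Of 17 genes tested, 13 rose and 0 fell (median log2 fold change 3.14), and all 13 rose more on the lit than on the shaded side by the test of the difference. They were 8 ELIP homologs, which sit in a run on chromosome 3 by their identifiers, 3 photolyases, the sigma factor SIG5 and the zeaxanthin epoxidase ABA1. The 8 ELIP homologs rose by 3.14 to 8.62 on the log2 scale. The copy with the highest CPM at ZT3, Ha412HOChr03g0133811 (88.9 CPM, not corrected for gene length), had the smallest change and reached 787 CPM. Reads may be shared among such close copies, so the split between them is uncertain. The summed level of the list, which counts the copies together, was 327 to 836 CPM at ZT3 and 4023 to 7461 at ZT4 on the lit side, with no overlap, and 343 to 830.0 and 569 to 1429 on the shaded side, where the ranges overlapped.

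The homolog of UVR3 (Ha412HOChr09g0426881), a photolyase that repairs ultraviolet damage using blue light, measured a median of 4.58 CPM (range 3.24 to 6.77) at ZT3 and a median of 314 CPM (range 181 to 352) at ZT4 (5.91 ± 0.27, adjusted p = 5.53e-34, edgeR). This gene and the others of this paragraph were singled out after their values were seen. The photolyase homolog of PHR1 (Ha412HOChr07g0291011) rose from a median of 15.2 CPM (range 6.66 to 28.99) to a median of 137 CPM (range 82.7 to 154). SIG5, a nuclear-encoded factor for chloroplast transcription (Ha412HOChr07g0326191), rose from a median of 42.2 CPM (range 35.5 to 63.9) to a median of 373 CPM (range 220.4 to 442). None of the 3 overlapped, and all rose by less on the shaded side (2.97 ± 0.25, 0.91 ± 0.23 and 0.96 ± 0.13).

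Other parts of photoprotection were not called. The homologs of PSBS and of the violaxanthin de-epoxidase NPQ1, which act in heat dissipation, had log2 fold changes of 0.11 and -0.07 (adjusted p = 0.673 and 0.722, edgeR). The lists fixed from the field overlap these genes: 11 of 11 genes for cellular response to blue light rose (median 5.27) and 14 of 14 tested for photoprotection (3.96), while of 10 for nonphotochemical quenching 0 rose and 3 fell.

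Light-harvesting antenna genes, which encode the chlorophyll-binding proteins of the photosystems, went the other way. Of 10 tested, 1 rose and 7 fell (median -0.54), and in the field list for light harvesting in photosystem I 9 of 12 fell (median -0.48). Homologs of 7 of the 10 and of 4 of the 12 were known only from the ZT4 tables. An LHCB6 homolog (Ha412HOChr03g0108001) went from a median of 171 CPM (range 119.5 to 189.8) to a median of 90.4 CPM (range 73 to 111), without overlap, and a CAB1 homolog (Ha412HOChr04g0187831) from a median of 849.6 CPM (range 599.8 to 1224) to a median of 546 CPM (range 485 to 659), with overlap. The LHCB4.1 homolog (Ha412HOChr01g0010761) was the 1 that rose (1.12 ± 0.14, adjusted p = 6.05e-10, edgeR). The falls were of moderate size. On the shaded side 0 of these genes were called. The test of the difference called 0 of the 10 and 0 of the 12 lower on the lit side. The falls were thus not shown to differ between the sides.

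Among light signaling genes, 11 of 18 tested rose and 3 fell (median 0.80). The HY5 homolog Ha412HOChr13g0604031, a bZIP factor at the center of the light response, had a median of 8.63 CPM (range 2.99 to 15.2) at ZT3 and a median of 261 CPM (range 176 to 292) at ZT4 (4.74 ± 0.25, adjusted p = 1.19e-29, edgeR). A second HY5 homolog (Ha412HOChr00c02709g0867161) rose from a median of 3.24 CPM (range 1.54 to 4.79) to a median of 31.3 CPM (range 26.5 to 40.4), and the third (Ha412HOChr02g0080481) from a mean of 5.61 to 55.5 CPM. All 3 rose on the shaded side also, Ha412HOChr13g0604031 by 2.87 ± 0.24.

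Repressors of light responses rose as well. RUP2 restrains ultraviolet-B signaling, and its homolog (Ha412HOChr15g0742951) went from a median of 0.101 CPM (range 0 to 0.635) to a median of 11 CPM (range 6.28 to 15.8), without overlap. COP1 and the SPA proteins form the complex that degrades HY5. Homologs of COP1 (Ha412HOChr16g0779751, 1.51 ± 0.16) and SPA3 (Ha412HOChr03g0122231, 1.58 ± 0.12), both singled out after their values were seen, rose without overlap. Homologs of SPA2 and SPA4 rose by 0.78 to 0.86 on the log2 scale, and a second COP1 homolog was at 0.13 (adjusted p = 0.499, edgeR). The COP1 and SPA3 changes were larger on the lit side (difference 1.13 ± 0.22, adjusted p = 0.000191, and 1.29 ± 0.17, 2.56e-08).

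Partners of the phototropins and other genes of light responses moved in both directions. The homolog of PKS1 (Ha412HOChr08g0330391), a substrate protein of phytochrome and phototropin signaling, fell from a median of 7.14 CPM (range 4.27 to 9.90) to a median of 0.578 CPM (range 0.415 to 1.12) (-3.33 ± 0.31, adjusted p = 1.12e-15, edgeR), without overlap. A homolog of PKS2, of the same family, rose by 1.30 (Ha412HOChr12g0544961). NPH3, which phototropins need for bending, had a homolog that fell by 0.58 ± 0.14 on the log2 scale (Ha412HOChr11g0492421), and the PIF1 homolog Ha412HOChr10g0433621 fell by 0.99 ± 0.17. RPT2 (Ha412HOChr08g0357441) was near the threshold (0.48 ± 0.17, adjusted p = 0.0375). Its call was lost without lit ZT3 replicate 1 (0.0532), 2 (0.157), 3 (0.0807) or 6 (0.0504), without lit ZT4 replicate 1 (0.0644), 2 (0.0841), 3 (0.0901) or 4 (0.067), and with the replicate block on the 24 libraries (0.0789). In the field list for phototropism, 3 of 16 genes rose and 6 fell (median -0.20), and the difference between sides was lower on the lit side for 7.

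Of 12 photoreceptor genes tested, 3 rose and 2 fell (median 0.16). Homologs of 5 of the 12 were known only from the ZT4 tables, among them Ha412HOChr05g0221241 and Ha412HOChr07g0298471 named below. The CRY1 homologs parted. Ha412HOChr04g0165151 rose from a median of 129 CPM (range 119 to 150.2) to a median of 245 CPM (range 209 to 294) and Ha412HOChr05g0221241 fell from a median of 112 CPM (range 97.5 to 129) to a median of 46.6 CPM (range 41.6 to 76.7), both without overlap. A PHOT2 homolog (Ha412HOChr07g0298471) rose by 1.20 ± 0.22 (adjusted p = 1.12e-05, edgeR), and PHYE (Ha412HOChr15g0717081) fell by 0.58 ± 0.15. Another PHOT2 homolog (Ha412HOChr07g0298481) was near the threshold (0.37 ± 0.14, adjusted p = 0.0483), and its call was lost without lit ZT3 replicate 1 (0.158), 4 (0.108), 5 (0.0589) or 6 (0.096), lit ZT4 replicate 1 (0.0562), 2 (0.0605), 3 (0.0994) or 6 (0.0953) and shaded ZT3 replicate 4 (0.05). The PHOT1 homolog, for the other phototropin, was at -0.20 (adjusted p = 0.76). Among B-box and CONSTANS-like genes, zinc-finger regulators of light responses, 3 of 11 rose and 2 fell (median 0.41). The COL3 homolog Ha412HOChr06g0268991 had the largest change called (1.45 ± 0.16).

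The entry to phenylpropanoid metabolism, which feeds lignin, hydroxycinnamates and flavonoids, rose almost throughout: 10 of 11 genes tested rose and 0 fell (median 1.77). The C4H homolog Ha412HOChr08g0357311 went from a median of 4.85 CPM (range 4.40 to 11.6) to a median of 36.2 CPM (range 19.8 to 53.04) (2.63 ± 0.28, adjusted p = 5.45e-13, edgeR), without overlap. PAL makes the first step, and its homolog Ha412HOChr13g0601051 went from a median of 22.9 CPM (range 17.3 to 47.97) to a median of 126 CPM (range 73.8 to 229.9). Another PAL homolog rose from a mean of 221 to 704 CPM (Ha412HOChr07g0311091). Summed over the list, the level was 484 to 1126 CPM at ZT3 and 1537 to 3659 at ZT4 on the lit side, without overlap, and 541 to 1244 and 481 to 1189 on the shaded side, where 1 gene was called. Beside this rise, the summed xylem markers, whose genes build secondary walls, were at 77.0 to 141 CPM and then 115 to 219 on the lit side (0 of 8 called, median 0.85). Their part in the result was not tested.

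Later branches rose in part. For hydroxycinnamates and lignin, 10 of 22 genes tested rose and 0 fell (median 0.93). HCT makes caffeoyl precursors, and its homolog Ha412HOChr10g0473031 rose from a median of 3.29 CPM (range 1.20 to 4.24) to a median of 13.7 CPM (range 7.53 to 23.3). The methyltransferase homolog of OMT1 (Ha412HOChr07g0306771) rose from a median of 1.35 CPM (range 1.02 to 2.43) to a median of 12.7 CPM (range 8.90 to 17.2), both without overlap. A CYP98A3 homolog (Ha412HOChr01g0012221) is uncertain, since 1 ZT3 library held 16.9 CPM, the median was 0, and the gene with the adjacent identifier and the same homolog, Ha412HOChr01g0012211, rose from 70.1 to 296 CPM. The xylem values given above apply to this list too.

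For flavonoids, 7 of 20 genes tested rose and 1 fell (median 0.54), and the genes that rose were mainly regulators. MYB12 and MYB111 activate flavonol synthesis. The MYB12 homolog Ha412HOChr11g0510131 rose from a median of 5.70 CPM (range 2.44 to 10.4) to a median of 57 CPM (range 46.8 to 87.9), and Ha412HOChr10g0439071 from a median of 0.348 CPM (range 0.111 to 2.81) to a median of 17.4 CPM (range 7.59 to 22.99), without overlap. Another MYB12 homolog (Ha412HOChr01g0001051) rose by 4.22 ± 0.45 and 3 MYB111 homologs by 1.58 to 2.57 (Ha412HOChr17g0805611 and Ha412HOChr13g0620301 at the ends). The enzymes did not pass the test at this hour. Chalcone synthase, the first enzyme of the branch (Ha412HOChr14g0662571, singled out after its values were seen), was at a median of 91.7 CPM (range 47.8 to 125) and a median of 78.1 CPM (range 38 to 171), overlapping (-0.03 ± 0.23, adjusted p = 0.959, edgeR). Homologs of TT5, F3H and FLS1 were at 0.06, 0.07 and -0.12. The exception was UGT78D2, a flavonol glycosyltransferase, 1 of whose homologs rose (1.11, Ha412HOChr05g0207961). The gene that fell was a homolog of TT8, a regulator of pigment genes (-1.06, Ha412HOChr11g0511101).

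Jasmonate genes rose on the lit side in 10 of 20 tested and fell in 2 (median 0.96). Within this list, which leaves out the jasmonate-oxidising genes described above, the largest changes called were in AOC homologs. AOC forms the ring of the hormone, and its homolog Ha412HOChr15g0722161 had a median of 0.336 CPM (range 0 to 1.38) at ZT3 and a median of 30.2 CPM (range 23.6 to 95.9) at ZT4 (6.50 ± 0.87, adjusted p = 3.08e-09, edgeR). Another AOC homolog (Ha412HOChr11g0483091) went from a median of 2.93 CPM (range 1.48 to 5.97) to a median of 81.1 CPM (range 48.05 to 162), and neither overlapped. Homologs of AOS, OPR3 and OPCL1, further steps of the route, rose by 3.46, 1.58 and 2.67 (Ha412HOChr04g0159091, Ha412HOChr12g0539461 and Ha412HOChr12g0552461). JAZ repressors of the response rose with them, the JAZ2 homolog Ha412HOChr04g0145661 from a median of 3.29 CPM (range 0.833 to 11.1) to a median of 102 CPM (range 32.9 to 230.2). The 2 falls were in perception and conjugation, COI1 (Ha412HOChr09g0392941, -0.65 ± 0.09) and JAR1 (Ha412HOChr06g0253411, -0.82 ± 0.21). Summed over the list the lit level was 452 to 666 CPM at ZT3 and 1072 to 1607 at ZT4, and the shaded level 453 to 579.7 and 604 to 823, with no overlap on either side. Homologs of 5 of the 20 genes tested were known only from the ZT4 tables.

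Rapid stress transcription factors, which respond within minutes to wounding and oxidants, split: 4 of 23 rose and 7 fell (median -0.03). On the shaded side 3 rose and 5 fell. The difference between sides was called upward for 1 and downward for 1, so most of these changes were not shown to differ between the sides. The RRTF1 homolog Ha412HOChr09g0388451 had a median of 0.0463 CPM (range 0 to 0.181) and then a median of 6.71 CPM (range 1.54 to 17.5), and a WRKY40 homolog (Ha412HOChr16g0748741) a median of 10.2 CPM (range 4.44 to 19.1) and then a median of 58.8 CPM (range 41.9 to 231), without overlap. Zinc-finger CZF1 homologs fell, among them Ha412HOChr09g0393251 from a median of 172 CPM (range 46.3 to 342) to a median of 33.8 CPM (range 28.7 to 59.99), with overlap. A WRKY33 homolog fell as well (Ha412HOChr16g0767381, -3.30 ± 0.54, adjusted p = 7.93e-07, edgeR). The ZT3 libraries spread widely for this list, with a summed level of 124 to 874 CPM on the lit side and 101 to 646 on the shaded, against 218 to 668 and 173 to 274 at ZT4. Of the field list for response to unfolded protein, 8 of 19 rose and 0 fell (median 0.47), among them the HSC70-type gene Ha412HOChr16g0776701, from a median of 65.5 CPM (range 59.3 to 77.8) to a median of 181 CPM (range 122 to 212). Of 15 heat shock genes, 0 were called (median 0.50).

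Auxin genes moved in both directions on the lit side. AUX/IAA repressors, which auxin induces, fell in 5 of 19 tested and rose in 2 (median -0.38), and SAUR genes, auxin-induced growth genes, fell in 3 of 17 and rose in 1 (median -0.42). Among all tested genes with a homolog 17.1% fell, so the SAUR falls were near the background share. On the shaded side 3 AUX/IAA and 3 SAUR genes rose and 0 fell. The IAA3 homologs parted, with Ha412HOChr12g0569921 at a median of 46.1 CPM (range 40.7 to 48.2) and a median of 117 CPM (range 82.3 to 172) and Ha412HOChr15g0697381 at a median of 54.04 CPM (range 40.1 to 56.5) and a median of 20.6 CPM (range 16.7 to 35.7), neither overlapping. Ha412HOChr12g0569921 also rose on the shaded side, by 1.14 ± 0.17 against 1.47 ± 0.17 on the lit, and the difference was not called (adjusted p = 0.71, edgeR). For Ha412HOChr15g0697381 the difference was called (-1.13 ± 0.20, adjusted p = 1.77e-05, edgeR). An ARF16 homolog (Ha412HOChr02g0082371), an auxin response factor, fell from a median of 14.6 CPM (range 12.9 to 18.7) to a median of 4.14 CPM (range 2.77 to 10.2) and the ARF19 homolog (Ha412HOChr03g0103791) by 0.94 ± 0.19 on the log2 scale (adjusted p = 4.49e-05, edgeR). Of PIN auxin carriers and GH3 conjugating enzymes, 2 of 12 rose and 5 fell (median 0.34, its sign opposite to the balance of calls). A PIN3 homolog (Ha412HOChr12g0575561) fell from a median of 151 CPM (range 121 to 202) to a median of 58.2 CPM (range 34.9 to 142). Of the PIN4 homologs, Ha412HOChr12g0547581 rose (1.22 ± 0.15) and Ha412HOChr17g0853211 fell (-1.09 ± 0.17).

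Growth and wall genes were mixed. Of 37 expansin and XTH genes, which loosen or remodel walls, 3 rose and 6 fell (median -0.18). This was 24.3% called, below the 29.3% of all tested genes with a homolog, so the counts do not set wall genes apart. An XTH23 homolog (Ha412HOChr05g0208181) went from a median of 70.7 CPM (range 33.96 to 280.5) to a median of 335 CPM (range 124 to 605) and another (Ha412HOChr05g0208191) from a median of 10.4 CPM (range 2.07 to 54.9) to a median of 2.70 CPM (range 0.415 to 4.16), in opposite directions and both with overlap. The first also rose on the shaded side, by 1.61 ± 0.46 against 1.54 ± 0.46 on the lit. Its lit call was lost with the 24 libraries alone (adjusted p = 0.102, edgeR). XTH15 homologs fell (Ha412HOChr11g0492571, -2.55 ± 0.49, and Ha412HOChr11g0492501, -2.82 ± 0.71), but with the replicate block on the 24 libraries their adjusted p values were 0.0588 and 0.137 (edgeR). FRA8, a xylan enzyme (Ha412HOChr02g0086981), fell by 0.98 ± 0.17.

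Brassinosteroid genes rose in 2 of 14 and fell in 4 (median -0.52). BES1, a factor that carries the hormone signal, had a homolog that fell from a median of 34.2 CPM (range 25.2 to 36.9) to a median of 12.7 CPM (range 10.5 to 20.3) without overlap (Ha412HOChr16g0760541), and the receptor homolog BRI1 fell by 0.70 ± 0.10 (Ha412HOChr14g0669191). Of 7 gibberellin genes 2 rose and 1 fell. GA20OX1, which makes the hormone (Ha412HOChr04g0170991), went from a median of 17.2 CPM (range 8.36 to 29.7) to a median of 4.29 CPM (range 2.08 to 7.10), and GA2OX8, which inactivates it (Ha412HOChr16g0778811), from a median of 0.985 CPM (range 0.216 to 2.43) to a median of 6.06 CPM (range 1.66 to 13.8). The first pair of ranges did not overlap and the second did, and both passed the edgeR test (adjusted p = 3.17e-08 and 7.99e-05). Clock genes rose in 4 of 16 and fell in 1 (median 0.14), with 31.25% called, near the 29.3% of all tested genes with a homolog. Among the rises were the homologs of ELF3 (Ha412HOChr07g0293611, 1.22 ± 0.13) and RVE1 (Ha412HOChr15g0724381, 1.24 ± 0.17). LHY, a morning gene of the clock (Ha412HOChr15g0736201), fell on the lit side by 0.71 ± 0.25 (adjusted p = 0.0319) and on the shaded by 0.92 ± 0.25. The lit call was lost without lit ZT3 replicate 3 (0.0536) or 6 (0.0544) and lit ZT4 replicate 4 (0.092) or 6 (0.0552).

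**Figure D4:**
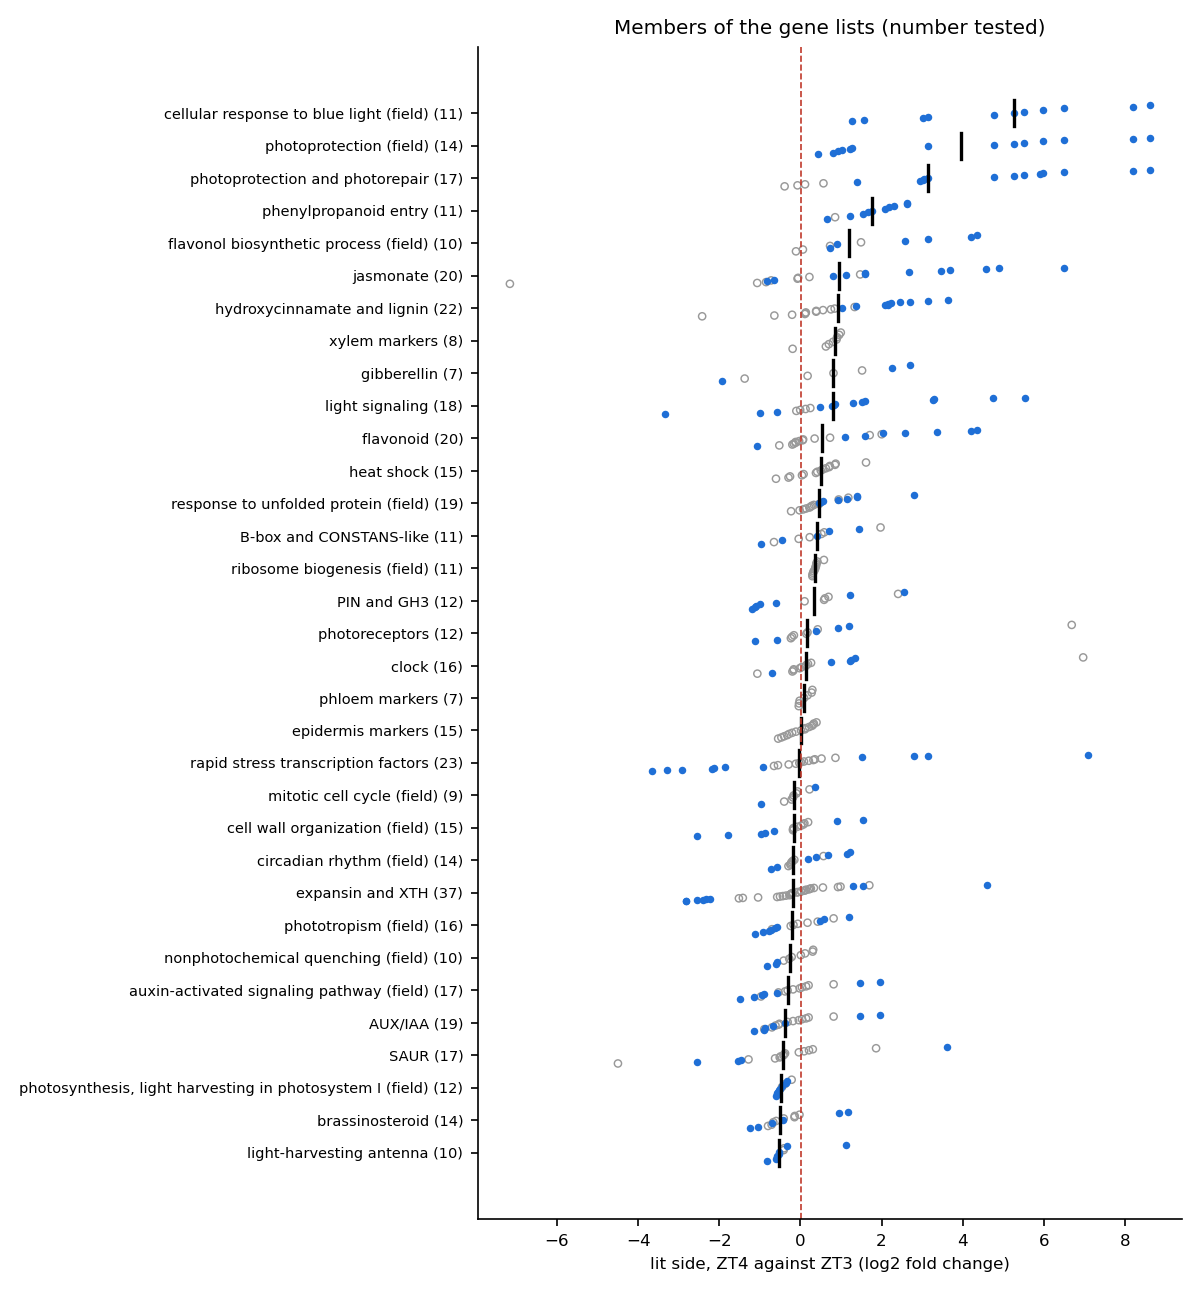
Fitted log2 fold change on the lit side, ZT4 against ZT3, of each tested member of the gene lists, filled points called by edgeR and open points not, with the list median as a bar, the median of all genes as a dashed line and the number tested in parentheses. Photoprotection and photorepair (median 3.14) and the entry to phenylpropanoid metabolism (1.77) lie above 0, and the light-harvesting antenna (-0.54) below.

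The differences between sides were also ranked among genes at 10 CPM or more whose lit ZT3 and ZT4 libraries did not overlap (672 of the 1251). A clear lit change was thus required of every gene ranked. Genes with little lit change and a shaded rise were left out, among them the homologs of PHYB (Ha412HOChr02g0079361, difference -2.37 ± 0.37) and LNG1 (Ha412HOChr17g0822481, -2.17 ± 0.28). Of the 5 lowest in the ranking, all fell on the lit side, and 3 had shaded changes above 0 that were not called (Ha412HOChr10g0439001 0.57, Ha412HOChr17g0816981 0.54 and Ha412HOChr11g0526751 0.38). The DnaJ-type homolog of AT4G02100 (Ha412HOChr10g0439001) went from a median of 87.9 CPM (range 65.6 to 133) to a median of 19.5 CPM (range 8.43 to 37.8) on the lit side and from a median of 91.97 CPM (range 63.2 to 105) to a median of 139 CPM (range 84.96 to 174) on the shaded. The difference was -2.63 ± 0.28 (adjusted p = 6.27e-12, edgeR). The homolog of AT5G15120 (Ha412HOChr11g0526751), a cysteine oxidase of the low-oxygen response, had a difference of -2.17 ± 0.30 (5.43e-08), and the wound-responsive Ha412HOChr17g0816981 of -2.81 ± 0.62 (0.0013). LBD37 (Ha412HOChr16g0761891) and the AT4G29310 homolog (Ha412HOChr06g0256141) completed these 5, at -2.33 ± 0.62 and -1.99 ± 0.45, with shaded changes of -1.36 ± 0.42 and -0.84 ± 0.31. For the last the adjusted p was 0.085 with the replicate block on the 24 libraries.

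At the upper end of the same ranking, beside the ELIP homologs, stood Ha412HOChr08g0350501, which has no homolog in the tables used. It went from a median of 3.35 CPM (range 0.734 to 5.40) to a median of 26.2 CPM (range 12.3 to 33.3) on the lit side and from a median of 2.82 CPM (range 0.792 to 3.95) to a median of 0.604 CPM (range 0.102 to 4.91) on the shaded (difference 4.05 ± 0.82, adjusted p = 0.000356, edgeR). The methyltransferase homolog Ha412HOChr09g0405301 differed by 4.47 ± 1.24 (adjusted p = 0.0181, and 0.125 without shaded ZT3 replicate 2). Ha412HOChr12g0541981 differed by 4.15 ± 1.25 (adjusted p = 0.0374), a call lost without lit ZT3 replicate 1 (0.0695), 2 (0.0705), 4 (0.0645) or 6 (0.0513), lit ZT4 replicate 5 (0.156), shaded ZT3 replicate 5 (0.334) and shaded ZT4 replicate 1 (0.0573), 2 (0.0576), 3 (0.0611) or 6 (0.0574). The 3 jasmonate genes at the top of the lit rises did not pass this test, which does not show that the sides moved alike. The fit behind it did not use the pairing of the libraries. For the CYP94B3 homolog Ha412HOChr04g0152581, with 9 and 89 counts at ZT3 and ZT4 on the shaded side, the difference was 6.30 ± 2.62, with a 95% interval of 1.16 to 11.44 and an adjusted p of 0.232.

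The 16 genes that fell on the lit and rose on the shaded side were led, by the size of the difference, by LNG2, of a family that promotes cell elongation (Ha412HOChr09g0412521). It measured a median of 8.95 CPM (range 5.44 to 16.7) and a median of 4.38 CPM (range 2.84 to 10.3) on the lit side, with overlap, and a median of 8.44 CPM (range 4.95 to 24.5) and a median of 26.5 CPM (range 23.9 to 40.6) on the shaded (difference -2.44 ± 0.40, adjusted p = 5.35e-06, edgeR). Its lit fall of 0.93 ± 0.29 (adjusted p = 0.0139) was lost without lit ZT3 replicate 5 (0.101) or lit ZT4 replicate 5 (0.0517), and with the replicate block on the 24 libraries (0.0826). A receptor-kinase homolog of AT5G56040 (Ha412HOChr09g0422751) went from a median of 21.7 CPM (range 18.2 to 32.1) to a median of 10.6 CPM (range 8.43 to 25.5) on the lit side, with a difference of -1.83 ± 0.32.

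Of the genes the study followed for bending, 9 rose on the shaded side in this hour while the lit side was not called. Over all genes tested, 2.07% rose on the shaded side. Followed homologs of SAUR12 (Ha412HOChr07g0303111), IAA14 (Ha412HOChr03g0143141) and IAA4 (Ha412HOChr10g0435441) were called on neither side. Their shaded changes were 1.11 ± 0.42, 0.51 ± 0.22 and 0.54 ± 0.22. The homologs of LNG1 (Ha412HOChr17g0822481), EIN3 (Ha412HOChr15g0726161), BZR1 (Ha412HOChr14g0662481), NPY8 (Ha412HOChr12g0580251) and PHYB (Ha412HOChr02g0079361) had lit log2 fold changes of -0.03 ± 0.20, -0.25 ± 0.19, -0.15 ± 0.16, -0.26 ± 0.15 and 0.18 ± 0.26. Their shaded changes were 2.14 ± 0.20, 1.20 ± 0.19, 0.93 ± 0.16, 0.82 ± 0.15 and 2.54 ± 0.27, and for these 5 the difference passed the test (adjusted p from 4.48e-09 to 0.000784, edgeR). It did not pass for the homologs of EBF1 (Ha412HOChr01g0047431, lit 0.41 ± 0.18, shaded 1.11 ± 0.18, adjusted p of the difference 0.118), PIN7 (Ha412HOChr01g0035481, 0.69 ± 0.34, 2.06 ± 0.35, 0.101) and KAT1 (Ha412HOChr04g0179931, 0.23 ± 0.23, 0.84 ± 0.23, 0.478). For these 3 the sides were not shown to differ in this fit, which did not use the pairing of the libraries. The lit change of EBF1 passed without lit ZT3 replicate 2 (0.0254) or lit ZT4 replicate 5 (0.035), and the shaded call of KAT1 was lost without shaded ZT3 replicate 3 (0.0967) or shaded ZT4 replicate 1 (0.0979) or 6 (0.0509). The last was an IAA4 homolog (Ha412HOChr01g0004341), with a lit change of -0.54 ± 0.24, a shaded change of 0.81 ± 0.24 and a difference that passed (adjusted p = 0.00685). Its shaded call was lost without shaded ZT3 replicate 1 (0.103), 2 (0.0894), 3 (0.066), 4 (0.108) or 6 (0.0565) or shaded ZT4 replicate 1 (0.0903), 5 (0.0587) or 6 (0.137), and its lit change passed without lit ZT3 replicate 1 (0.0462) or lit ZT4 replicate 6 (0.0313) and with the replicate block (0.038). The study chose these genes on these samples, so their pattern is not independent evidence.

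HB2, a shade-response factor (Ha412HOChr13g0623611), rose on both sides, from a median of 11.7 CPM (range 7.60 to 34.3) to a median of 44.5 CPM (range 37.6 to 74.4) on the lit and from a median of 12.3 CPM (range 8.67 to 31.9) to a median of 125 CPM (range 91.9 to 170.3) on the shaded, more so on the shaded (difference -1.35 ± 0.26, adjusted p = 0.000157, edgeR). BIM1, a partner of BES1 (Ha412HOChr02g0064141), rose by 0.47 ± 0.15 on the lit side (adjusted p = 0.0137, and 0.101 without lit ZT4 replicate 4) and by 2.31 ± 0.15 on the shaded. The reference genes EF (Ha412HOChr11g0495951) and UBQ (Ha412HOChr06g0274091) were at 0.17 ± 0.12 and 0.11 ± 0.10 on the lit side, not called.

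The later libraries show, as levels only, how the first-hour rises ran on. They share the ZT3 libraries with the comparison above and were not tested. The ELIP1 homolog Ha412HOChr03g0133601 had lit means of 1.55 CPM at ZT3, 495 after 1 hour of blue light and 602 at ZT5, then 176 (ZT7), 92.7 (ZT9) and 13.9 (ZT12). It thus stayed high for a further hour and then declined, with ranges of 336 to 672 at ZT4 and 516 to 712 at ZT5 that overlapped. HY5 (Ha412HOChr13g0604031) had lit means of 9.18, 249.9, 226, 144 and 109.5 CPM at the first 5 time points (ZT3 to ZT9). WRKY40 (Ha412HOChr16g0748741) had 10.7, 94.1, 14.3 and 20.1 CPM at ZT3, ZT4, ZT5 and ZT7, its highest mean of these at ZT4. The CYP94B3 homolog Ha412HOChr04g0152581 had 36.96 CPM at ZT4, 30.4 at ZT5 and 30.7 at ZT7.

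Among the falls, PKS1 (Ha412HOChr08g0330391) had lit means of 6.99, 0.672, 2.77 and 6.05 CPM at ZT3, ZT4, ZT5 and ZT7, back near its ZT3 level by the last. LBD37 (Ha412HOChr16g0761891) had 12.02, 0.907, 2.65 and 3.32 CPM at the same times. Chalcone synthase (Ha412HOChr14g0662571), not called in the first hour, had lit means of 89.98, 156, 238 and 214 CPM from ZT4 to ZT9, and shaded means of 76.3, 71.98, 45.2 and 43.6 CPM.

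**Figure D5:**
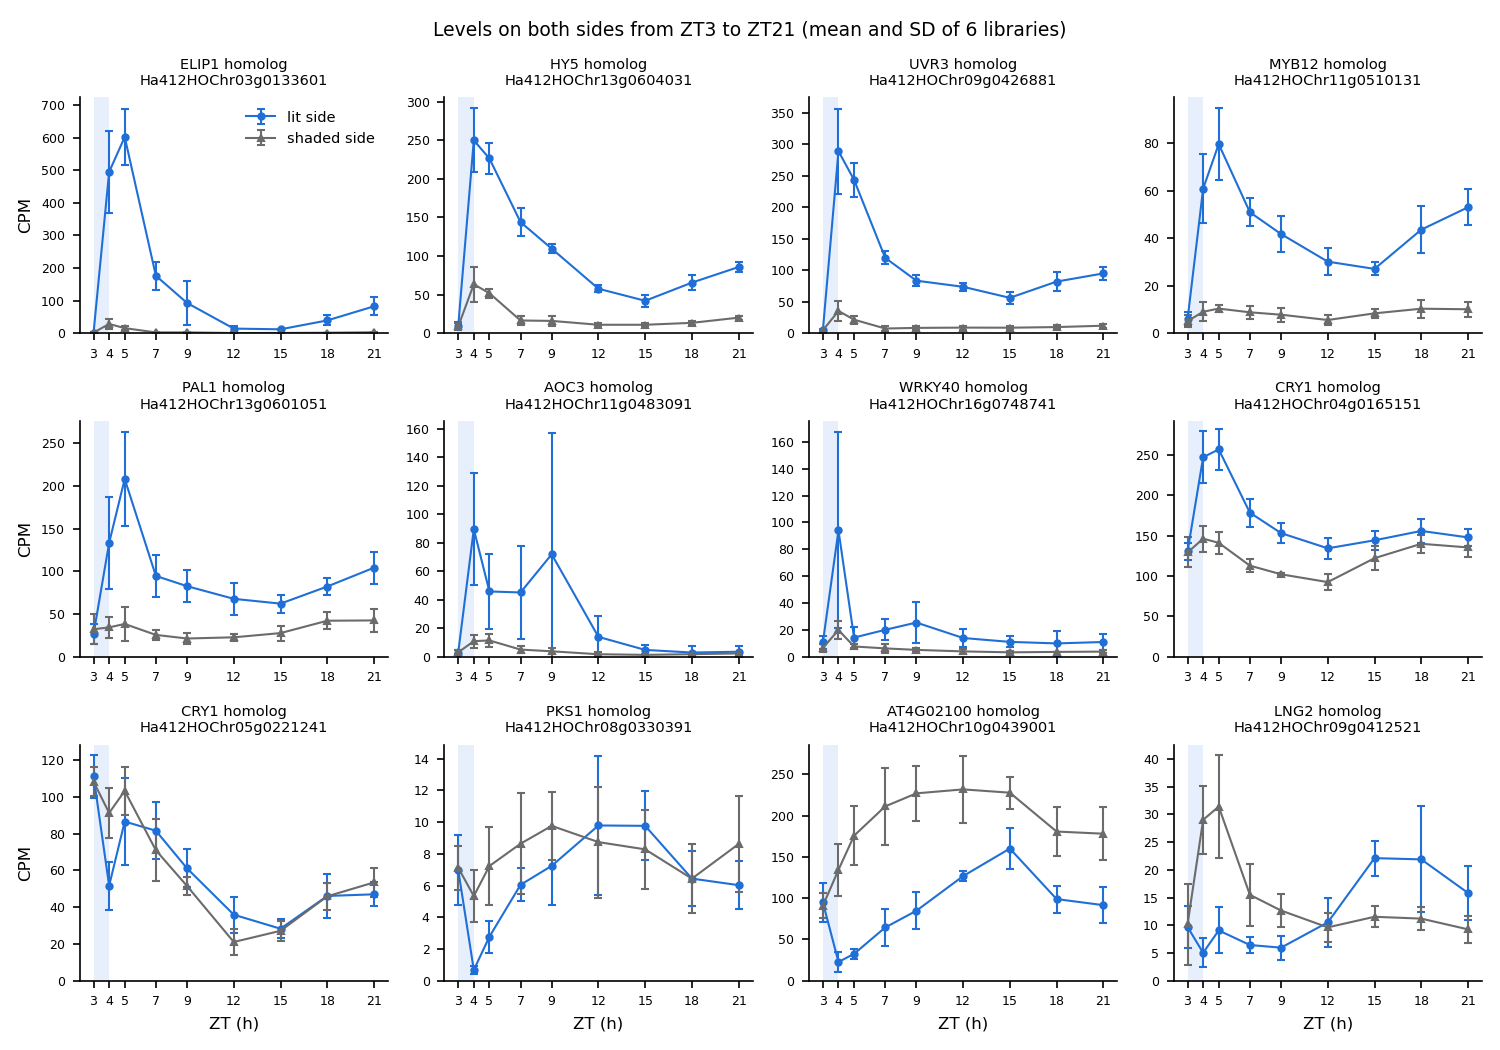
CPM of selected genes on the lit and shaded side at the 9 time points from ZT3 to ZT21, with points the mean of 6 libraries, bars the SD and the hour from ZT3 to ZT4 shaded. The ELIP1 homolog Ha412HOChr03g0133601 is high on the lit side at ZT4 and ZT5 (means of 495 and 602 CPM) and falls afterwards.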

How the data were processed

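RNA sequencing of peeled stem strips was quantified by the authors, and the deposited phototropism table holds estimated counts per gene with several time points and both sides in 1 table (46.9% of the values above 0 were whole numbers). By the study's methods, quality-filtered reads were quantified with Salmon 1.4.0 against transcripts drawn from the HA412-HO genome annotation with Cufflinks 2.2.1. Salmon shares reads among similar transcripts, so the split between close copies is uncertain. The study's normalized tables and its field libraries were not used here. The design had assumed whole counts, so the deposited estimated counts were rounded before testing, and 0 columns of no known sample were met.

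Samples were grouped by side and time point from the labels (ZT4, used here, is a time point of the labels). All 108 phototropism libraries were fitted with edgeR 4.0.16 in R 4.3.3 (quasi-likelihood test, TMM scaling, genes reaching 10 counts in 6 or more libraries, 1 coefficient per group), with Benjamini-Hochberg adjustment over 32644 genes and a threshold of 0.05. Contrasts were lit ZT4 against ZT3, shaded ZT4 against ZT3 and their difference. CPM are TMM-scaled, and a fold change is given with its standard error (SE) on the log2 scale. Nothing in the labels says that replicates came from separate cultures beyond the pooled plants, so p values measure the spread between these libraries. Same-numbered libraries deviated together from their group means (correlations from 0.248 to 0.823 across the 4 pairs of groups), so the numbers were taken to pair the libraries, a pairing read from the data.

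The gene lists and the members named were chosen with earlier results of these data known. Named were the 12 largest rises and 12 largest falls without overlap at 10 CPM or more, the 5 largest differences between sides each way within the same limits (672 of 1251 genes), the 3 largest differences among opposite calls at 10 CPM or more, the genes the study followed, and up to 3 members per list and direction at 5 CPM or more. A further 6 genes, and list members quoted outside these rules, were chosen after their values were seen. The fits were tested for recovery of known fold changes on simulated libraries. These were drawn independently, without the shared deviations by replicate number, so the simulation does not speak to the error rate of the calls. Alternatives were RLE scaling, no low-count filter, DESeq2 1.42.0, the 24 libraries alone, replicate blocks and leaving out each library. Replicates 1 to 4 alone and 5 and 6 alone were added after seeing the data. No sequences are shown, since the reference table used another assembly and matched none of the gene identifiers.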

Additional observations from a re-analysis of the deposited data

Results flagged for a closer look

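In the groups of 6 libraries looked at (116, for totals, marker sums and named genes), 18 had 1 library far from the other 5. The rule flags about 1 in 20 groups of independent, normally distributed values. These groups share libraries and their values were not shown to be normal, so the count cannot be set against that rate. Lit ZT3 replicate 2 had the largest total of its group, 25146924 estimated counts. Summed phloem markers were highest in replicate 2 at ZT3 on both sides, at 800.4 CPM on the lit side (others 429 to 562) and 892 on the shaded (527 to 659). Lit ZT4 replicate 2 stood apart for the bHLH093 homolog Ha412HOChr11g0482101 (3.03 CPM), the AT4G29310 homolog Ha412HOChr06g0256141 (5.46), LNG2 (Ha412HOChr09g0412521, 10.3), the AT5G56040 homolog Ha412HOChr09g0422751 (25.5) and HB2 (Ha412HOChr13g0623611, 74.4), all highest, and for PRR5 (Ha412HOChr08g0350221, 3.15), lowest. Lit ZT3 replicate 2 was also highest for HB2 (34.3).

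At ZT3 on the lit side, replicate 3 was highest for the CYP94B3 homolog Ha412HOChr02g0052621 (0.212 CPM), the wound-responsive Ha412HOChr17g0816981 (23.8) and LNG1 (Ha412HOChr17g0822481, 40.1). Replicate 5 was highest for Ha412HOChr09g0412521 (16.7) and Ha412HOChr09g0422751 (32.1), and replicate 4 was lowest for PIN7 (Ha412HOChr01g0035481, 8.07). At ZT4 on the lit side, replicate 3 was highest for the AT5G05600 homolog Ha412HOChr15g0744481 (89.2) and replicate 5 for Ha412HOChr12g0541981 (110.4).

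The change from ZT3 to ZT4 differed between the sides for 1251 genes by the interaction test in edgeR. Among the named genes singled out for it, the lit change minus the shaded change on the log2 scale was 5.02 for the ELIP2 homolog Ha412HOChr03g0133691, 4.17 for the ELIP1 homolog Ha412HOChr03g0133601, 4.47 for Ha412HOChr09g0405301, 4.15 for Ha412HOChr12g0541981 and 4.05 for Ha412HOChr08g0350501. It was -2.81 for Ha412HOChr17g0816981, -2.63 for Ha412HOChr10g0439001, -2.33 for LBD37 (Ha412HOChr16g0761891), -2.17 for Ha412HOChr11g0526751 and -1.99 for Ha412HOChr06g0256141. Of the opposite changes, LNG2 (Ha412HOChr09g0412521) was at -2.44, Ha412HOChr10g0469891 at -2.10 and Ha412HOChr09g0422751 at -1.83. Among the genes the study followed, PHYB (Ha412HOChr02g0079361) was at -2.37, LNG1 (Ha412HOChr17g0822481) at -2.17, BIM1 (Ha412HOChr02g0064141) at -1.84, EIN3 (Ha412HOChr15g0726161) at -1.45, an IAA4 homolog (Ha412HOChr01g0004341) at -1.35, HB2 (Ha412HOChr13g0623611) at -1.35, BZR1 (Ha412HOChr14g0662481) at -1.08 and NPY8 (Ha412HOChr12g0580251) at -1.08.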

How the results depend on the processing

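The count of genes changed on the lit side (5846) stayed within 1.5 times under RLE scaling, no low-count filter, DESeq2, the 24 libraries alone and both replicate blocks fitted for it (7447 and 7334), and ran from 5221 to 5915 with 1 library left out. With replicates 5 and 6 alone, chosen after seeing the data, it was 2798. On the shaded side (1190) it was 362 with the ZT3 and ZT4 libraries alone, 2077 with the replicate block and 53 with replicates 5 and 6 alone, and ran from 820 to 1249 with 1 library left out. For the difference between sides (1251) it was 575 with the ZT3 and ZT4 libraries alone, 1880 with the replicate block, 2828 with a replicate block of time point and number on those libraries, 632 with replicates 1 to 4 alone and 318 with replicates 5 and 6 alone, and ran from 1056 to 1523 with 1 library left out. Fewer libraries enter the smaller sets, and otherwise the cause was not tested. Of the 122 named genes called on the lit side, 37 lost the call under some alternative and 11 with 1 library left out. For the shaded side 44 of 54 did and 20 with 1 library left out, and for the difference between sides 51 of 75 and 13. The 1 sign change was RPT2 (Ha412HOChr08g0357441), at -0.21 with replicates 5 and 6 alone.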
